A study of Arabidopsis thaliana with 12 samples.

Results

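AUR1 and AUR2, which encode Aurora kinases, HTR12, which encodes the centromeric histone H3 of Arabidopsis thaliana (also called CENH3), and PRL, which encodes the replication licensing factor MCM7 and is also called PROLIFERA, were followed through the 4 treatments of an LBD16 induction experiment. The 4 genes were chosen by name, as the rows annotated to them, out of 16550 genes tested. Each was read by 1 probe set, and none of these probe sets was annotated to a further gene. Other members of the Aurora and histone H3 families have similar sequences, and no probe sequences were used here, so reading of a relative by a probe set was not tested.

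RNA came from whole roots of 5-day-old seedlings that all carried 35S::LBD16:GR in the arf7-2 arf19-5 background. LBD16 is a transcription factor of lateral root initiation, ARF7 and ARF19 are the auxin response factors that act upstream of it, and the 35S promoter is active in most cells, not just those that found lateral roots. The glucocorticoid receptor part (GR) keeps the fusion out of the nucleus until the steroid dexamethasone (DEX) is given, and cycloheximide (CHX) blocks protein synthesis. Seedlings were treated for 4 hours with 2 µM DEX plus 10 µM CHX, with 10 µM CHX, with 2 µM DEX, or with mock solution (0.1% DMSO). Each treatment was measured on 3 arrays from independent sets of RNA. No array came from roots without the fusion, so the effect of DEX itself cannot be told apart from that of the activated fusion.

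Aurora kinases phosphorylate histone H3 and spindle proteins during mitosis. In Arabidopsis AUR1 and AUR2 form the group found on the spindle and the forming cell plate, and AUR3 the group found at centromeres. HTR12 replaces ordinary histone H3 at centromeres and marks where kinetochores form. MCM7 is a subunit of the helicase that is loaded onto replication origins before S phase and unwinds DNA during it. The first division of a lateral root founder cell is an early step of lateral root formation, so these genes bear on whether activating LBD16 moved transcripts of the division machinery within 4 hours.

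LBD16 was read at 9.29 to 9.67 on the log2 scale in all 12 arrays. ARF7 and ARF19 were not among the named rows. Replicate arrays correlated at 0.985 to 0.990 across all rows. Of the 6 markers listed for the root meristem and stem cells none was among the named rows, and the same held for the endodermis, xylem and phloem lists. The 2 root hair markers measured of 4 listed, EXPA7 and EXPA18, were expressed in every array. Their summed log2 level was 16.4 to 16.9 with DEX+CHX, 17.0 to 17.2 with CHX, 18.9 to 19.3 with DEX and 18.4 to 18.7 with mock. For the 2 shoot markers of 4 listed, RCA and PORB, the sums were 11.4 to 12.8 with DEX+CHX, 11.7 to 12.6 with CHX, 10.9 to 11.8 with DEX and 11.9 to 12.9 with mock. These sums join markers that moved in opposite directions with CHX. With CHX against mock RCA was at 54.8% (limma adjusted p = 0.00122) and PORB at 151% (adjusted p = 0.0636). With DEX+CHX against DEX they were at 72.8% (adjusted p = 0.0466) and 234% (adjusted p = 0.00113). None of these markers was at 0. In RNA from whole roots, fewer dividing cells and less of a transcript in each cell cannot be told apart.

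AUR1 gave log2 values of 10.21, 10.19 and 10.03 with DEX and 10.06, 10.23 and 10.17 with mock. With DEX+CHX it gave 9.59, 9.53 and 9.50, and with CHX 9.77, 9.50 and 9.39. The DEX and mock arrays overlapped, as did the DEX+CHX and CHX arrays, and all 6 arrays with CHX lay below all 6 without it. How many of all genes were separated like this was not counted, here or for the genes below. With CHX against mock 54.9% of all genes had a limma adjusted p below 0.05, so such a gap sets no gene apart. The spread was widest among the CHX arrays (SD 0.19, n = 3).

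AUR2 gave 7.77, 7.66 and 7.78 with DEX and 7.75, 7.52 and 7.88 with mock. It gave 6.70, 6.59 and 6.73 with DEX+CHX and 6.74, 6.63 and 6.61 with CHX. Here too the arrays overlapped between DEX and its control on either side of CHX, while the highest CHX-treated array, 6.74, stood well under the lowest untreated one, 7.52.

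HTR12 read 8.97, 9.00 and 8.95 with DEX and 8.78, 8.99 and 8.88 with mock. With DEX+CHX it read 7.92, 8.00 and 7.75, and with CHX 8.11, 7.86 and 7.87. As for the Aurora genes, all arrays with CHX lay below all arrays without it, and the arrays overlapped within each side.

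PRL read 9.31, 9.34 and 9.16 with DEX and 9.13, 9.27 and 9.07 with mock. It read 9.02, 9.22 and 9.01 with DEX+CHX and 9.09, 9.04 and 9.07 with CHX. The licensing gene differed from the other 3 in that all 4 treatments lay close together and the CHX and mock arrays overlapped. The DEX+CHX and DEX arrays of PRL overlapped as well. Its CHX and DEX arrays did not, but these differ in both treatments and were not compared by a test.

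**Figure D1:**
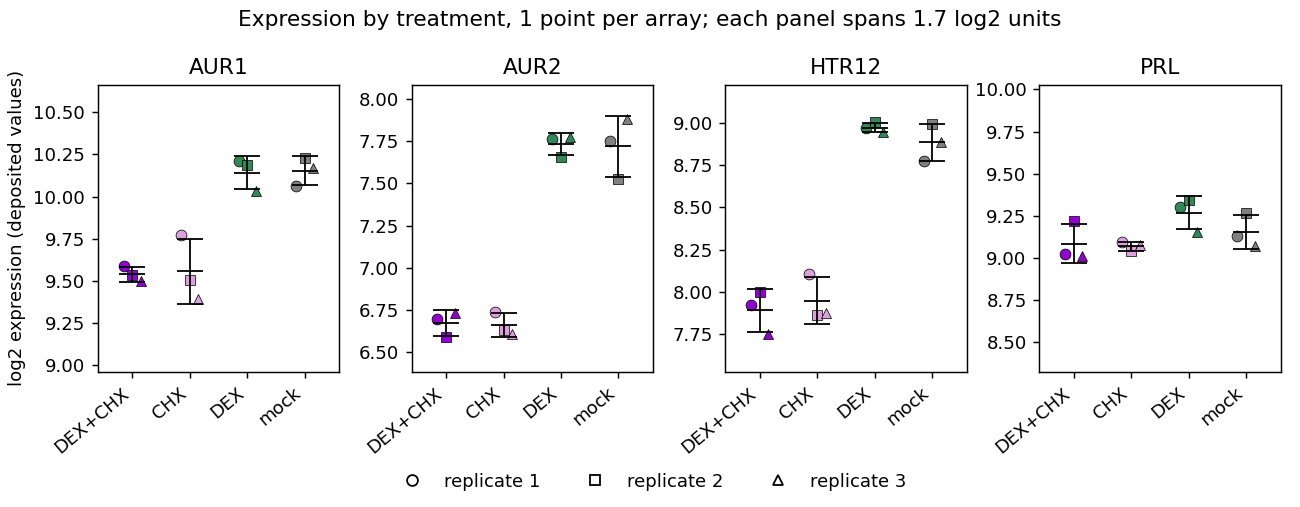
Log2 expression (vertical axis) of AUR1, AUR2, HTR12 and PRL in the 12 arrays, by treatment; each point is 1 array, its shape the replicate number, and the bars give the mean and SD of 3 arrays. AUR1, AUR2 and HTR12 fall into 2 levels set by CHX, and the PRL arrays overlap between CHX and mock.

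These replicates were tight. The residual SD around the treatment means was 0.12 for AUR1, 0.11 for AUR2, 0.11 for HTR12 and 0.09 for PRL, against a median of 0.18 over all genes. All 4 were read above the middle of the array, since 65.1% of genes had a lower mean than AUR2 and 94.0% had a lower mean than AUR1.

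The comparison of DEX with mock asks whether activated LBD16 changed these transcripts while proteins could be made. None of the 4 genes passed the limma test at an adjusted p below 0.05, where 1.52% of all genes did, and none had an unadjusted p below 0.05. PRL stood at a log2 difference of 0.11 ± 0.10 (SE, n = 3 per group, limma adjusted p = 0.794), with a mean of 9.27 ± 0.10 (SD) with DEX and 9.16 ± 0.10 with mock. HTR12 stood at 0.09 ± 0.10 (adjusted p = 0.876), AUR2 at 0.01 ± 0.10 (adjusted p = 0.989) and AUR1 at -0.01 ± 0.11 (adjusted p = 0.991). Small changes remain possible. The 95% confidence intervals ran from 84.2% to 117% of the mock level for AUR1, from 86.3% to 118% for AUR2, from 90.8% to 125% for HTR12 and from 93.5% to 125% for PRL. A halving or doubling lay outside each interval.

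With protein synthesis blocked, the comparison of DEX+CHX with CHX gave the same count. None of the 4 genes was called, against 0.592% of all genes, and again none had an unadjusted p below 0.05. The log2 differences were -0.02 ± 0.11 for AUR1, 0.01 ± 0.10 for AUR2, -0.06 ± 0.10 for HTR12 and 0.01 ± 0.10 for PRL (SE, n = 3 per group, limma adjusted p = 1.00 for each). The intervals were 83.9% to 117% of the CHX level for AUR1, 86.2% to 118% for AUR2, 82.0% to 113% for HTR12 and 87.3% to 117% for PRL.

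The interaction tests whether the DEX effect itself differed between roots with and without CHX. It was called for 0.127% of genes and for none of these 4, and none had an unadjusted p below 0.05. HTR12 had the largest difference of the 4, at -0.15 ± 0.15 (SE, limma adjusted p = 1.00), and PRL stood at -0.10 ± 0.14. For AUR1 and AUR2 the difference was 0.00 to 2 decimals, with intervals of -0.34 to 0.33 and -0.32 to 0.32 on the log2 scale.

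The comparison of CHX with mock asks what 4 hours of blocked protein synthesis did without DEX, and shares its mock arrays with the first DEX comparison. AUR1, AUR2 and HTR12 fell and PRL was not called. AUR2 averaged 6.66 ± 0.07 (SD, n = 3) with CHX and 7.72 ± 0.18 with mock, which leaves 48.0% of its mock level (95% confidence interval 41.0% to 56.2%, limma adjusted p = 2.82e-06). HTR12 averaged 7.95 ± 0.14 with CHX and 8.89 ± 0.11 with mock, or 52.2% (44.6% to 61.1%, adjusted p = 8.44e-06). AUR1 averaged 9.56 ± 0.19 with CHX and 10.15 ± 0.09 with mock, or 66.1% (56.1% to 77.9%, adjusted p = 0.000478). PRL averaged 9.07 ± 0.03 with CHX and 9.16 ± 0.10 with mock, or 94.2% (81.5% to 109%, adjusted p = 0.49).

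CHX moved a large part of the transcriptome, and the members' calls are to be read against that. Of all genes 54.9% were called, 24.2% higher and 30.7% lower, so a call alone sets none of these genes apart. The median log2 difference of the 4 was -0.77, against -0.08 over all genes tested. The summed level of the root hair markers was also lower in the arrays with CHX, and its part in the result was not tested. By size, 9.50% of genes had a lower difference than AUR2, 11.8% a lower one than HTR12 and 20.9% a lower one than AUR1. PRL lay in the middle, with 49.3% of genes below it.

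The comparison of DEX+CHX with DEX repeats the CHX comparison on the other 6 arrays, although the fit shares its estimate of the spread. Same-numbered DEX+CHX and CHX arrays also deviated together across genes (r = 0.157 to 0.332). The 2 comparisons are therefore not fully independent. The same 3 genes fell. AUR2 averaged 6.67 ± 0.08 (SD) with DEX+CHX and 7.73 ± 0.07 with DEX, at 47.9% (95% confidence interval 41.0% to 56.1%, limma adjusted p = 2.75e-06). HTR12 averaged 7.89 ± 0.13 with DEX+CHX and 8.97 ± 0.03 with DEX, at 47.2% (40.3% to 55.2%, adjusted p = 2.38e-06). AUR1 averaged 9.54 ± 0.04 with DEX+CHX and 10.14 ± 0.10 with DEX, at 65.9% (55.9% to 77.6%, adjusted p = 0.000442). PRL averaged 9.08 ± 0.12 with DEX+CHX and 9.27 ± 0.10 with DEX, at 88.0% (76.1% to 102%, adjusted p = 0.126). In this comparison 55.8% of all genes were called, with 23.3% of all genes higher and 32.5% lower, and the median log2 difference was -0.83 over the 4 and -0.12 over all genes.

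**Figure D2:**
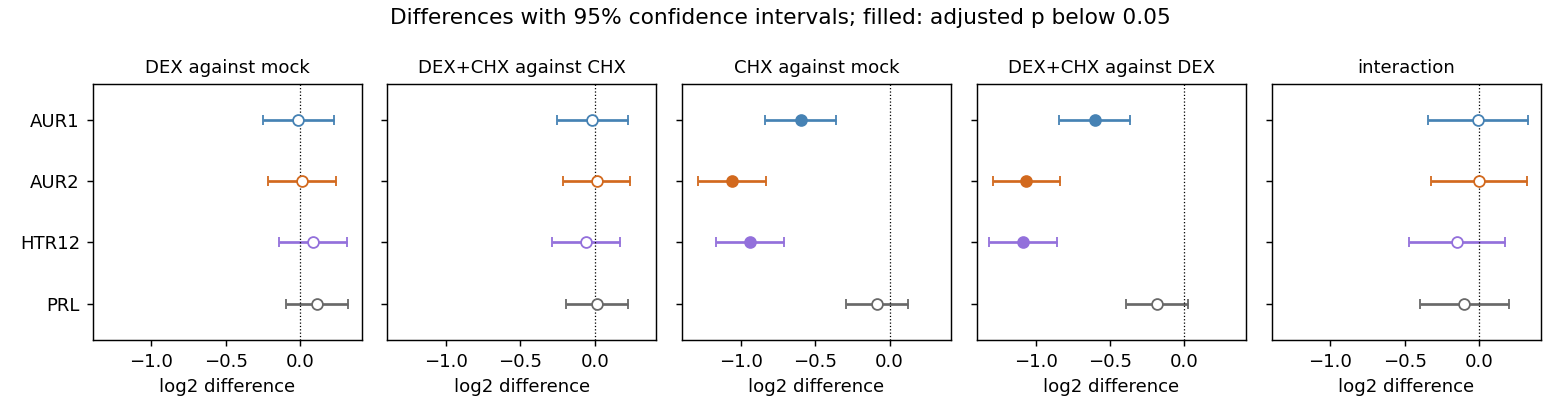
Log2 difference (horizontal axis) of each gene in the 4 comparisons and in the interaction, with its 95% confidence interval from the limma fit; filled points passed an adjusted p of 0.05. AUR1, AUR2 and HTR12 are filled in both CHX comparisons, and every DEX and interaction interval spans 0.

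The size of the CHX effect depended on how the arrays are scaled. With CHX the array median over all rows of the table was 5.62 to 5.68, against 6.07 to 6.14 without it, a shift of -0.46 on the log2 scale. Over the genes tested, the median was 5.98 to 6.03 with CHX and 5.87 to 5.92 without it, a shift of 0.11 the other way. With each array centred on its median over all rows, AUR2 and HTR12 were still called lower with CHX against mock, at 65.2% (adjusted p = 0.000287) and 70.9% (adjusted p = 0.00157). AUR1 was then at 89.7% and not called (adjusted p = 0.224), and PRL was called higher at 128% (adjusted p = 0.00594). For DEX+CHX against DEX the same scaling gave 66.5% for AUR2, 65.5% for HTR12, 91.4% for AUR1 (adjusted p = 0.312) and 122% for PRL (adjusted p = 0.0188). Over all genes this scaling called 48.8% higher and 16.0% lower with CHX against mock, and 47.8% higher and 15.3% lower with DEX+CHX against DEX. With each array centred on the genes tested, PRL was called lower with DEX+CHX against DEX, at 81.9% (adjusted p = 0.0176), and not with CHX against mock, at 86.8% (adjusted p = 0.0778). The direction of PRL under CHX is therefore not settled by these values, nor is the call for AUR1.

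**Figure D3:**
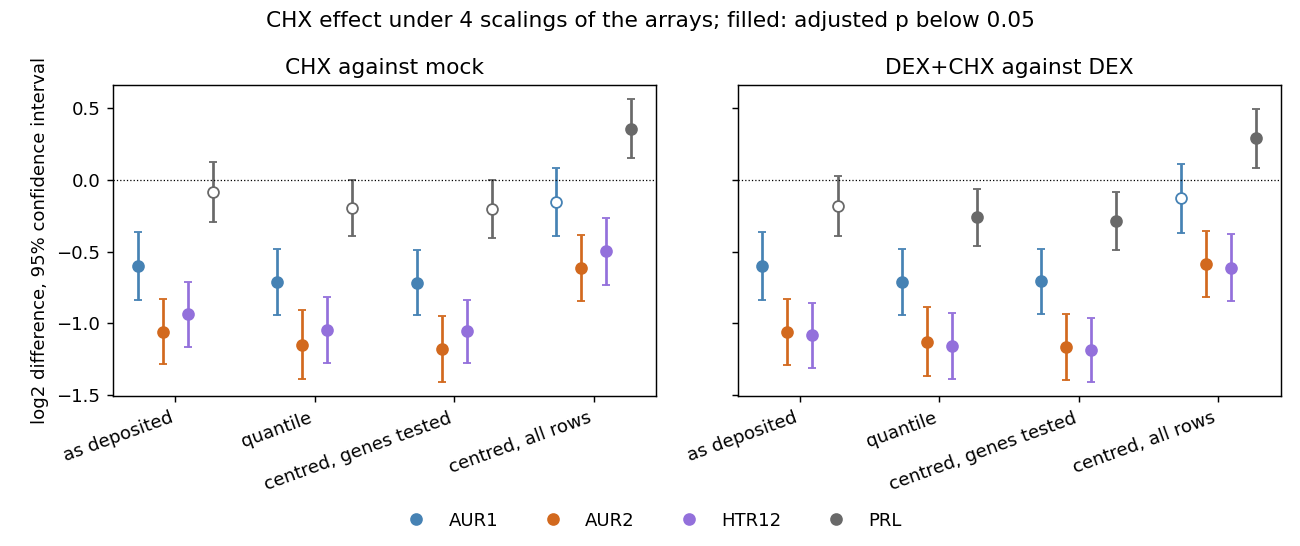
Log2 difference (vertical axis, with 95% confidence interval) of the 4 genes in both CHX comparisons under 4 scalings of the arrays; filled points passed an adjusted p of 0.05. AUR2 and HTR12 are below 0 and filled under each scaling, AUR1 is open with arrays centred on all rows, and PRL lies on either side of 0.

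Differences between 2 genes within an array are not moved by either centring, which adds 1 constant to all values of an array. Quantile normalization is not such a shift, and the differences were taken from the values as deposited. They were compared between the 6 arrays with CHX and the 6 without, for all 6 pairs of these genes, by exact two-sided permutation of the CHX label separately among the DEX-treated arrays and the others (400 relabellings, smallest possible p 0.005). This test was added after the values were seen, and p-values were adjusted over the 6 pairs. AUR2 moved further with CHX than AUR1, by -0.46 on the log2 scale (exact permutation p = 0.005, adjusted p = 0.006). AUR2 minus AUR1 was -3.03 to -2.77 with CHX and -2.71 to -2.26 without, so the arrays did not overlap. HTR12 also moved further than AUR1, by -0.41 (exact permutation p = 0.005, adjusted p = 0.006), with values of -1.75 to -1.52 with CHX and -1.29 to -1.08 without.

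Each of the 3 mitotic genes moved down relative to PRL. AUR1 did so by -0.47, AUR2 by -0.93 and HTR12 by -0.88, each without overlap between the arrays (exact permutation p = 0.005 and adjusted p = 0.006 for each pair). The pairs use the same values as the limma calls and are no separate evidence of a fall. How many pairs among all genes separate in this way was not counted. These shifts had the same sign without and with DEX, at -0.51 and -0.42 for AUR1, -0.97 and -0.88 for AUR2 and -0.85 and -0.90 for HTR12. AUR2 and HTR12 were not separated by CHX, with a shift of -0.05 (exact permutation p = 0.595, adjusted p = 0.595), which was -0.12 without DEX and 0.02 with it. The within-array values show unequal change of the array signal among the genes and do not say that any of them stayed constant. Mean levels differed, from 7.20 for AUR2 to 9.85 for AUR1, and an effect of signal level on these shifts was not tested.

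**Figure D4:**
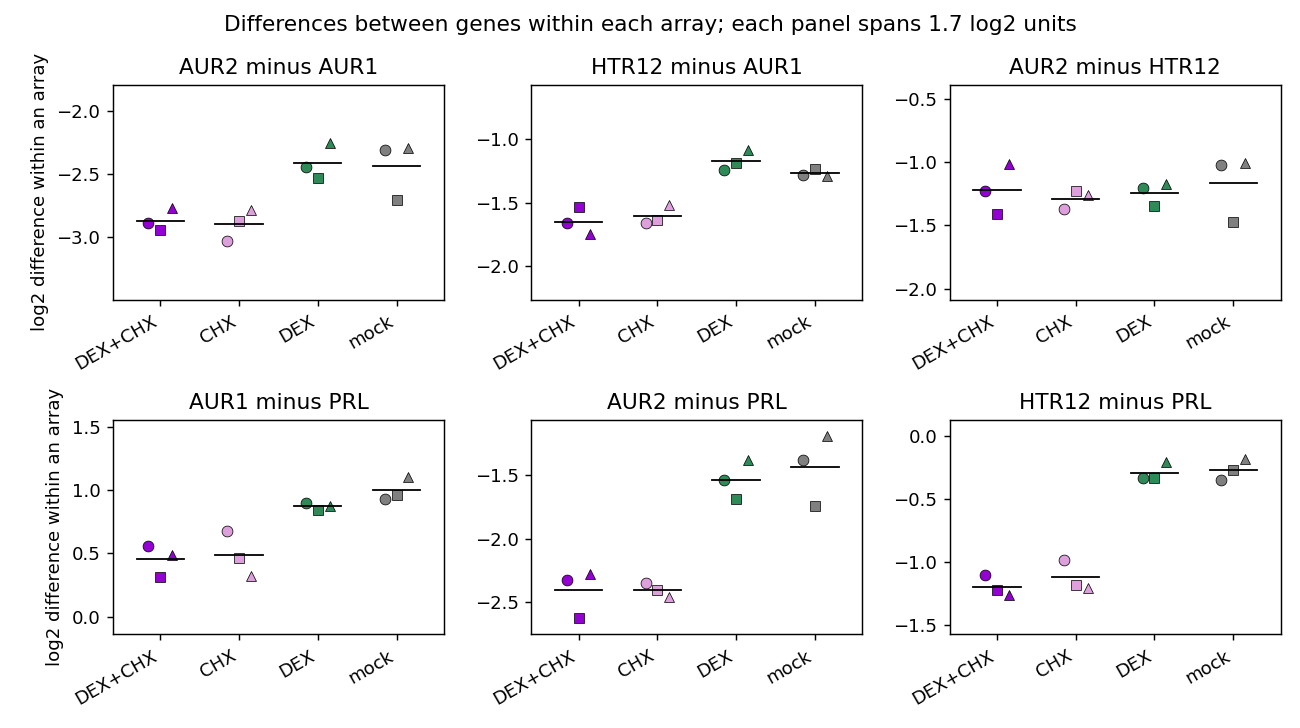
Difference of log2 values between 2 genes within each array (vertical axis) for the 6 pairs, by treatment; each point is 1 array, its shape the replicate number as in the plot of values by array, and the line is the mean of 3. Arrays with CHX lie apart from those without it in each pair except AUR2 minus HTR12.

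Other genes of cell division were taken from lists of 110 loci for the spindle, kinetochore, histone H3, replication licensing, cyclins, CDKs and their regulators, plus genes whose names or synonyms in the RefSeq table held words such as kinesin, cyclin or histone. Of the 110 loci, 13 were among the named rows, and none of the 29 listed cyclins and 1 of the 26 CDKs and regulators was. PRL and AT1G07270 were the measured ones of 22 licensing loci, so no other MCM subunit was read. The 9 loci beside the 4 genes and 6 genes found by their names gave 15 further genes.

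None of the 15 was called with DEX against mock, where their log2 differences ran from -0.34 to 0.40, or with DEX+CHX against CHX, where they ran from -0.34 to 0.24, or for the interaction. None had an unadjusted p below 0.05 in any of these by limma. With 1.52%, 0.592% and 0.127% of all genes called in these comparisons, a count of 0 among 15 is near the background. AUR3, the centromeric Aurora kinase, was at 98.7% of mock with DEX (95% confidence interval 85.7% to 114%) and at 97.0% of CHX with DEX+CHX (84.2% to 112%).

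With CHX against mock 6 of the 15 fell and 4 rose, and with DEX+CHX against DEX 7 fell and 3 rose. As shares of the 15 these were 40% lower and 26.7% higher, against 30.7% and 24.2% of all genes, and then 46.7% lower and 20% higher, against 32.5% and 23.3% of all genes. The balance turned with arrays centred on all rows, where 3 were called lower and 5 higher with CHX against mock, and 2 lower and 5 higher with DEX+CHX against DEX. It turned over all genes as well, with 16% called lower and 48.8% higher, and then 15.3% lower and 47.8% higher. The median differences of the 15 in the values as deposited were -0.19 and -0.21. AUR3 fell in both. It averaged 7.99 ± 0.11 (SD, n = 3) with CHX and 8.52 ± 0.08 with mock, or 69.0% (limma adjusted p = 0.00034), and 67.8% with DEX+CHX against DEX (adjusted p = 0.000234). With arrays centred on all rows it was at 93.7% and 94.1% and not called (adjusted p = 0.372 and 0.406).

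The genes that fell in both were AUR3, BUB3.1, a protein of the spindle checkpoint, SIM, an inhibitor of cyclin-dependent kinases, and both kinesins measured. Of all genes 30.7% and 32.5% fell in each comparison taken singly, and the share that fell in both was not counted. KINESIN-12B, a motor of the phragmoplast where the cell plate forms, fell to 46.2% with CHX against mock (limma adjusted p = 8.77e-06) and to 40.7% with DEX+CHX against DEX (adjusted p = 2.3e-06). KINESIN-13A, which like KINESIN-12B was found by its name, fell to 50.6% (adjusted p = 5.35e-07) and 47.0% (adjusted p = 2.14e-07). Its name alone does not give KINESIN-13A a role in cell division. Both kinesins were also called lower with arrays centred on all rows, at 62.7% and 68.7% with CHX against mock. BUB3.1 stood at 63.4% and 67.2% and was not called under that scaling. SIM stood at 51.4% and 58.7%, and under that scaling was called with CHX against mock only (adjusted p = 0.00306 and 0.0528).

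Of the 7 histone genes beside HTR12, 3 rose in both CHX comparisons and none fell in both. Taken singly, these comparisons called 24.2% and 23.3% of all genes higher and 30.7% and 32.5% lower. The share of all genes called in both was not counted, so the count of 3 has no matching background. HTB2, a histone H2B gene, gave 8.05, 8.13 and 8.35 with DEX+CHX, 7.93, 8.10 and 8.55 with CHX, 6.74, 7.28 and 7.10 with DEX and 6.99, 7.07 and 7.04 with mock. It rose to 224% with CHX against mock (limma adjusted p = 8.74e-05) and 220% with DEX+CHX against DEX (adjusted p = 0.000101). HON4, annotated as a histone H1, rose to 154% and 143% (adjusted p = 0.000375 and 0.00154), and AT1G75600, a locus entered in the histone H3 list, to 220% and 245% (adjusted p = 0.00172 and 0.000676). All 3 were called higher under each of the 4 scalings. Of these, the centring on all rows called 48.8% and 47.8% of all genes higher. MGH3, a histone H3 of the male gamete, stood at 92.9% and 90.4% and was not called. Neither were AT5G12910, at 92.5% and 86.4%, and AT1G13370, at 138% and 109%, both entered in the histone H3 list. AT1G13370 had group means of 1.35 to 1.81, near the bottom of the scale, and was called higher with arrays centred on all rows. AT1G75600, MGH3 and AT5G12910 were also read below the array medians over the genes tested. Their group means were 4.44 to 5.92, 4.27 to 4.50 and 3.61 to 4.07.

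Calls for 4 further genes held in 1 comparison each. AT1G07270, entered in the licensing list, rose to 148% with CHX against mock (limma adjusted p = 0.00393) and stood at 119% with DEX+CHX against DEX (adjusted p = 0.152), and with arrays centred on all rows was called higher in both. AT1G61000, entered in the kinetochore list, fell to 67.5% with DEX+CHX against DEX (adjusted p = 0.00751), a call not made with arrays centred on all rows. CYCJ18, a J-type cyclin, was at 74.1% with CHX against mock (adjusted p = 0.0222), and that call ended without any of 4 arrays, mock replicates 2 and 3 and CHX replicates 2 and 3 (adjusted p = 0.0759, 0.0679, 0.0643 and 0.0839). HIS1-3, a histone H1, was at 61.4% with DEX+CHX against DEX (adjusted p = 0.0314), and that call ended without any of 5 arrays, DEX replicates 1, 2 and 3 and DEX+CHX replicates 2 and 3 (adjusted p = 0.055, 0.0915, 0.0529, 0.116 and 0.0904). Neither of the last 2 was called with arrays centred on all rows. HIS1-3 was also read low, with group means of 3.12 to 3.86.

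**Figure D5:**
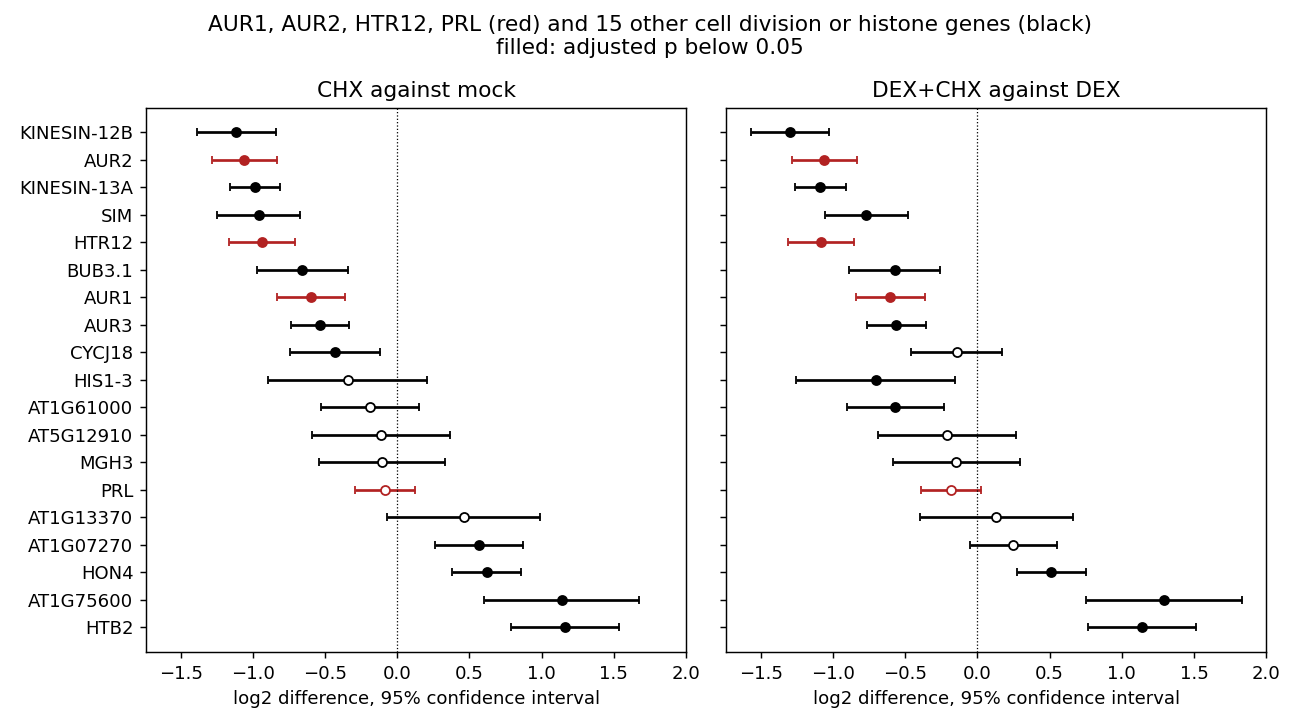
Log2 difference (horizontal axis, with 95% confidence interval) in both CHX comparisons for AUR1, AUR2, HTR12 and PRL (red) and 15 other genes (black), ordered by CHX against mock. The 15 came from the cell division and histone lists or were found by name. Filled points passed an adjusted p of 0.05. The kinesins and SIM stand with AUR2 and HTR12 at the low end, and HTB2, AT1G75600 and HON4 at the high end.

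The genes most like each member were taken as those with the highest Pearson correlation over the 12 arrays, which share the step between arrays with and without CHX. For AUR2 these were AT1G29310 (r = 0.998), AT1G72020 (0.995) and SP1L5 (0.995), which encodes a microtubule-associated protein of the SPIRAL1 type. For HTR12 they were AT1G10810 (0.995), AT3G06460 (0.995) and AT3G09735 (0.995), and for AUR1 AT5G50420 (0.991), AT1G10850 (0.988) and AT2G34190 (0.987). All 9 were lower with CHX against mock, SP1L5 at -2.52 on the log2 scale. That follows from picking them on the same arrays and is no separate result. Such likeness was common, since 3312 genes correlated above 0.9 with AUR2, 3239 with HTR12 and 2553 with AUR1. For PRL 4 genes did so, led by AT2G37510 (0.940), AT1G62080 (0.915) and AT1G26590 (0.907).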

How the data were processed

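Gene expression was measured in 12 samples, 1 Affymetrix array each. The authors processed the arrays with Affymetrix Expression Console 1.3, per the submitters' processing notes. How probe sets were summarized and normalized is not given in those notes as used here. The values the authors deposited were read as log2 expression, judging by their range, and were not changed. Low values have no stated floor, and the number of arrays limits the precision.

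Of 38408 rows, 16722 were annotated to 1 gene, 759 to several and 20927 were unnamed there. Where a gene had several probe sets the brightest on average was kept, which gave 16550 genes. For 16411 of these the symbol was updated through the RefSeq gene table (TAIR10.1). Coordinates are left out because the annotation names no genome build.

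With R 4.3.3 and limma 3.58.1, all 12 arrays entered 1 linear model with a mean for each treatment, and two-sided moderated tests were adjusted by Benjamini-Hochberg over all genes. Calls needed an adjusted p below 0.05. Confidence intervals are per gene and not adjusted. Both the fit and the permutation test were tested on simulated data. The 4 genes, the lists and the tests were chosen with earlier results of these data known. The naming rule took the 4 genes, the measured genes of the locus lists, the genes of the word lists (up to 3 per comparison with the smallest p; the others were added after their values were seen, so that all 6 are described) and the 3 most alike genes for each of the 4. The word lists were meant for gene descriptions and were applied to RefSeq symbols and synonyms instead.

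Alternatives were 3 scalings, the replicate number as a block, a filter on the dimmest 30% of genes, the mean of a gene's probe sets, all rows tested, a trended robust variance, just the arrays compared, an adjusted p of 0.01, a fold minimum of 2 and leaving out each array. The labels give the treatments the same replicate numbers. Across genes, same-numbered DEX+CHX and CHX arrays deviated together (r = 0.244, 0.157 and 0.332 for replicates 1, 2 and 3). This link between them rests on the data alone. The main fit and the permutation test did not use the replicate number. Only the alternative with the replicate number as a block did. In each of the other 3 comparisons 1 or more pairs correlated below 0.1. All their correlations were positive, and those of replicate 3 were 0.189 to 0.227. No arrays held identical values.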

Additional observations from a re-analysis of the deposited data

How the results depend on the processing

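The direction and call of AUR2 under CHX did not change in any alternative, in either CHX comparison. With the replicate number as a block the log2 differences, such as -0.60 for AUR1 with CHX against mock, are fixed by the balanced design, so only the p-values can move. The limma adjusted p with the block was 0.000588 for AUR1, 4.23e-06 for AUR2, 2.76e-05 for HTR12 and 0.401 for PRL with CHX against mock, and 0.000551, 4.07e-06, 1.02e-05 and 0.0756 with DEX+CHX against DEX. The block changed none of the calls of these 4 genes or, as added after the values were seen, of the 15 others in any comparison. Calls moved with scaling. With arrays centred on the median of all rows, AUR1 came to -0.16 and -0.13 and lost both calls, and PRL reversed to 0.36 and 0.29, called higher, so the count of 3 called genes held other genes. PRL was called lower for DEX+CHX against DEX with quantile normalization (-0.26) and with arrays centred on the genes tested (-0.29). A fold minimum of 2 left 1 of 3 calls for CHX against mock, ending those of AUR1 (-0.60) and HTR12 (-0.94), and 2 of 3 for DEX+CHX against DEX, ending that of AUR1 (-0.60). With that minimum 23.2% and 23.4% of all genes were called in these comparisons. Leaving out any 1 array changed no call of the 4 genes. DEX and interaction values near 0 changed sign without a call. For DEX against mock AUR2 became -0.017 with quantile normalization, -0.011 centred on the genes tested and -0.018 centred on all rows. For the interaction, AUR1 became 0.0097 and 0.026 with these centrings, and AUR2 became 0.013 and 0.030 with them and 0.019 with quantile normalization. With 1 array left out, the DEX against mock values ran from -0.058 to 0.044 for AUR1 and -0.084 to 0.094 for AUR2. The DEX+CHX against CHX values ran from -0.097 to 0.092 for AUR1, -0.017 to 0.055 for AUR2, -0.112 to 0.023 for HTR12 and -0.052 to 0.051 for PRL. The interaction ran from -0.086 to 0.103 for AUR1 and -0.082 to 0.097 for AUR2. The causes of these changes were not tested.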
